A study of Drosophila melanogaster with 6 samples.

Results

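Cluster 22 of the starvation atlas is a small group of muscle nuclei that the authors' annotation names visceral muscle of the crop, the storage pouch of the fly foregut. Its members were taken from the annotation, as every nucleus given cluster number 22, and numbered 213 of 43027 nuclei (0.495%). All 6 libraries held such nuclei. Single-nucleus RNA sequencing was performed on nuclei of adult female *Drosophila melanogaster* bodies without heads, sorted on a DNA dye, from flies fed normally, starved for 2 days or starved for 5 days, with 2 libraries per condition. All flies carried PromE-gal4 and Tub-gal80ts, a temperature-controlled Gal4 source in oenocytes, at 29 °C, and the labels used here name no further transgene. The starvation medium lacked energy sources. Whether the libraries of a condition came from separate flies is not stated, so the p-values given here measure only the spread between these libraries, which may be technical.

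Adult flies use several kinds of muscle. Indirect flight muscle is fibrillar, contracts many times per nerve impulse, and depends on the transcription factor gene *salm*, on the splicing regulator gene *bru1* and on proteins such as flightin (*fln*) and the troponin C encoded by *TpnC4*. Leg, jump and body wall muscles are tubular, contract once per impulse and use other isoforms, such as the actin *Act79B* and the troponin C *TpnC41C*. Visceral muscle surrounds the gut, and its founder cells are set up by *bap*, *bin* and *HLH54F*. Muscle fibers of the first kinds hold many nuclei in shared cytoplasm.

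The libraries held 3776 to 10091 nuclei and 7562484 to 22940414 UMIs (unique molecular identifiers, each standing for 1 captured RNA molecule). Cluster 22 had 56 and 74 nuclei in fed libraries, 17 and 29 at day 2 and 21 and 16 at day 5, with 404372 UMIs in all, so a gene seen with fewer than 3 UMIs lies under 0.0742 UMIs per 10000 in the cluster. Levels below are UMIs per 10000 UMIs of the cluster. Of all barcodes, 179 occurred in more than 1 library, and 3 of these were in nuclei of cluster 22.

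The nuclei were muscle, and the visceral muscle genes were too low in every cluster to test the annotation's name. The muscle list (*Mhc*, *sls*, *bt*, *Act57B*, *Act79B*, *TpnC41C* and *Prm*, genes of the contractile apparatus) summed to 659 UMIs per 10000 in cluster 22, the highest sum of the 26 clusters, against 600 in cluster 0 (named indirect flight muscle) and 607 in cluster 1 (named muscle). Per library the list gave 619 to 709 in cluster 22. Of the 3 visceral muscle genes, *bap* and *bin* had 0 UMIs in all 213 nuclei, and the third was not analysed here. No cluster had more than 0.139 UMIs per 10000 of them together, so these genes name no cluster at this depth. The heart list (*tin*, *Hand*, *mid* and *H15*) stood at 0.0742. The annotation's name could thus be neither backed nor contradicted by these genes, and the nuclei are called cluster 22 here.

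Most markers of other cell types were low. The hemocyte list summed to 0.569 UMIs per 10000 in cluster 22 against 216 in the hemocyte cluster, the neuron list to 0.989 against 255 in the neuron cluster, the fat body list to 12.8 against 380 in the fat body cluster and the oenocyte list to 9.69 against 291 in the oenocyte cluster. The other cell type lists with a sum above 12 were eggshell genes, at 23.3 for 6 choriogenic follicle genes and 13.6 for 7 vitellogenic follicle genes, the Malpighian principal cell list at 16.1, the oviduct list at 14.9, the fat body list and the enterocyte list at 12.7. In the Malpighian list *Vha16-1* gave 8.80 and *ct* 7.10, in the oviduct list *Octbeta2R* gave 14.5, and in the enterocyte list *alphaTry* gave 8.51 and *betaTry* 2.77. In cluster 0 the choriogenic, vitellogenic, Malpighian, oviduct and enterocyte lists summed to 27.6, 16.6, 10.7, 11.2 and 16.96, and in cluster 1 to 22.01, 13.8, 24.2, 18.9 and 15.2. Within cluster 22 the choriogenic list summed to 38.03 and 37.9 in fed libraries and to 0 in all 4 starved ones, and the vitellogenic list to 24.5 and 19.7 in fed libraries, 0.640 and 0.703 at day 2 and 0 at day 5.

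Markers of fibrillar and of tubular muscle were both present. *TpnC4* stood at 3.04 UMIs per 10000 in cluster 22, against 3.93 in cluster 0 and 0.193 in cluster 1. *fln* stood at 2.77 in cluster 22, against 4.16 in cluster 0 and 0.181 in cluster 1. For the tubular isoforms the order turned round. *Act79B* had 2.65 UMIs per 10000 in cluster 22, against 0.196 in cluster 0 and 4.44 in cluster 1, and *TpnC41C* had 3.93 in cluster 22, against 0.260 in cluster 0 and 6.91 in cluster 1. Each of the 4 isoform genes thus lay between its levels in the 2 large muscle clusters. The myosin heavy chain gene *Mhc*, used by both kinds, lay between as well, at 42.9 in cluster 22, against 26.8 in cluster 0 and 59.8 in cluster 1. Also on the flight muscle list, *Act88F* had 0.519, 0.869 and 0.130 in clusters 22, 0 and 1, from 21 UMIs in cluster 22. *Mf* was not higher in cluster 0, at 56.7, 46.8 and 63.5 in the same order. The sum of the flight muscle list, 63.0, 55.7 and 64.0, thus did not mark cluster 0.

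Sarcomere genes led those that gave cluster 22 the most UMIs, with genes of other kinds also among the top 10. *bt* (the titin-like kinase projectin) stood at 309 UMIs per 10000 in cluster 22, 333 in cluster 0 and 221 in cluster 1. *sls* (the titin-like sallimus) stood at 281, 216 and 301 in the same order. Next came the nuclear non-coding RNA gene *lncRNA:Hsromega*, at 146 in cluster 22, 46.4 in cluster 0 and 223 in cluster 1. *Msp300*, a nesprin that anchors muscle nuclei, *rdgA*, *up* (troponin T), *pan*, *Mf* (myofilin), *Stacl* and *Zasp66* followed, at 56.2 to 67.5 in cluster 22. None of these 10 genes was highest in cluster 22.

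Few genes were highest in cluster 22, and by small factors. Of 1956 genes with a UMI in at least 10% of its nuclei, 43 (2.20%) had their highest level of all clusters there, 1 by 2-fold or more and 0 by 4-fold or more. This was not particular to cluster 22. By the same rule the share was 0.131% in cluster 18, 0.307% in cluster 20, 0.421% in cluster 23 and 0.919% in cluster 21. It was 12.8% in cluster 0 and 5.56% in cluster 1, with 0 genes at 2-fold in each. The leading gene of cluster 22 was *lncRNA:CR43611*, a non-coding RNA of unknown role (chromosome 2R, 6707306 to 6708960, BDGP6, overlapping *chk* and *CG45092* on the other strand). It had 25 UMIs in 22 nuclei, or 0.618 per 10000, against 0.229 in cluster 1, a ratio of 2.70. The cuticle protein gene *Cpr66D* followed with a ratio of 1.48, but 28 of its 52 UMIs came from 1 nucleus. Among better counted genes, *Zasp52*, a Z-disc protein gene, stood at 55.0 UMIs per 10000 in cluster 22 against 48.8 in cluster 0. *RyR*, the calcium release channel of the sarcoplasmic reticulum, stood at 10.3 against 9.21 in cluster 0. *Fhos*, a formin of the sarcomere, stood at 10.0 against 8.81 in cluster 0, and *Neto*, an auxiliary subunit of muscle glutamate receptors, at 10.6 against 9.73 in cluster 1. The remaining 14 of the 20 genes with the highest ratios (*CG10713*, *CG6656*, *Hsc70-1*, *CG4945*, *Ac76E*, *CYLD*, *Thd1*, *HDAC4*, *CG7720*, *CG11052*, *FipoQ*, *CG6424*, *CG7987* and *EndoU*) had ratios of 1.07 to 1.34. These ratios describe clusters that were drawn from the same expression values, so no test was run on them.

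Over 2285 genes with at least 20 UMIs in cluster 22, log levels were most like those of cluster 1 (Pearson's r across genes of 0.918) and cluster 0 (0.903), followed by cluster 20 (0.865) and cluster 23 (0.848). Genes are not independent replicates and the clusters share libraries, so these are descriptions. The profile was then fitted as a sum of the other 25 cluster profiles with weights of 0 or more. Cluster 0 received a weight of 0.544 and cluster 1 a weight of 0.457, and the other clusters received 0. Fitted one library at a time, the weight of cluster 0 ran between 0.503 and 0.617, that of cluster 1 between 0.411 and 0.472, and all others together took 0.00185 to 0.0673. The sum came within 1.5-fold of the measured level for 2187 genes (95.7%) and within 2-fold for 2276 (99.6%). Cluster 0 alone came within 2-fold for 92.7% of the genes and cluster 1 alone for 90.3%.

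**Figure D1:**
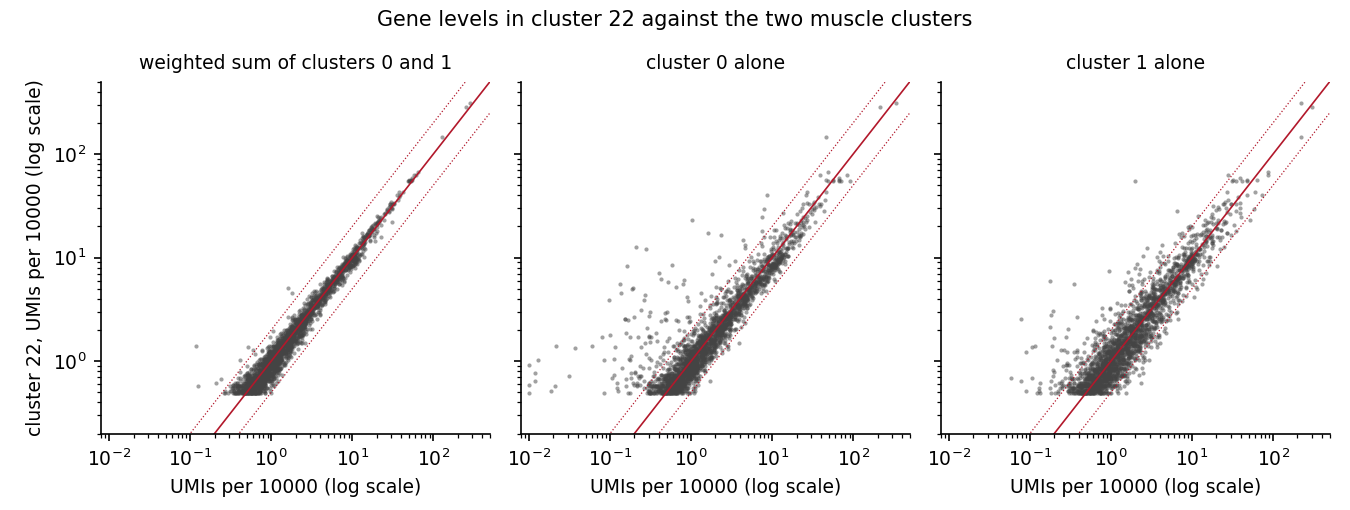
Level of each gene in cluster 22 (y axis, UMIs per 10000, log scale) against the weighted sum of clusters 0 and 1, cluster 0 alone and cluster 1 alone (x axes, UMIs per 10000, log scale), with 1 point per gene, the solid line marking equality and dotted lines 2-fold. The points close around the line in the left panel, where 99.6% of genes lie within 2-fold, and spread further in the others, where 92.7% and 90.3% do.

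A fit of this closeness was not usual for clusters of the atlas. In the same fit made for each cluster from the other 25, cluster 22 ranked 3 of 26 by the share of genes within 1.5-fold. Clusters 18 (98.8%), 21 (96.4%), 20 (95.2%) and 23 (87.2%), all small, stood beside it, and the next was cluster 1 at 81.6%. The lowest was the fat body cluster at 34.4%.

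Genes that left the sum were few, and several of those above it rested largely on 1 nucleus. Of 2475 genes at a floor of 20 UMIs measured or predicted, 9 lay 2-fold or more above it and 26 as far below. The 26 had low counts that were mostly spread over nuclei, such as *Pdi* (19 UMIs in 18 nuclei) and *Fad2* (17 in 16). An exception was *chinmo*, with 5 of 8 UMIs in 1 nucleus. Among the 9, *CG45263* had 47 of its 57 UMIs in 1 nucleus, *lovit* 49 of 55, *CG45002* 18 of 23, *Cpr66D* 28 of 52 and *lncRNA:CR46472* 25 of 41. *CG8620* had 75 of 204 UMIs in 1 nucleus, and *tyn*, an epidermal gene, 4 of 27. *mgl*, a receptor gene of the megalin family that was highest in cluster 19 (named stalk follicle cell), had 66 of 183 UMIs in 1 nucleus. Its level in cluster 22 was 7.59 and 6.46 UMIs per 10000 in fed libraries, 0.320 and 1.05 at day 2 and 0.526 and 0.332 at day 5, so both fed libraries lay above all starved ones. The ninth, *lncRNA:CR43611*, was spread over 22 nuclei with at most 2 UMIs in each.

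The 2 muscle clusters were separated by 180 genes that differed at least 4-fold between them at 1 UMI per 10000 or more in the higher one, 53 higher in cluster 0 and 127 higher in cluster 1. In cluster 22, 52 of the 53 and 126 of the 127 lay between their levels in the 2 clusters, and the other 2 lay above both. With the lower cluster set to 0 and the higher to 1, the median position was 0.568 for the genes of cluster 0 and 0.442 for those of cluster 1. Cluster 20 (named epidermal cell of the abdominal posterior compartment) was alike for the first set only, with 51 of the 53 genes between at a median position of 0.547, but 77 of the 127 at 0.06. Cluster 23 (named tendon cell) came near for the second set, with 98 of the 127 at 0.624, but 21 of the 53 at -0.02. The third muscle cluster, number 13, differed from cluster 22 as well. There 19 of the 53 genes of cluster 0 lay between, with a median position of -0.02, and 87 of the 127 genes of cluster 1, with a median position of 0.69.

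Among the flight muscle genes, *bru1* (chromosome 2L, 12175004 to 12313438, overlapping *atilla* and *CG31759*) stood at 54.3 UMIs per 10000 in cluster 22, 90.4 in cluster 0 and 1.99 in cluster 1. By library its level in cluster 22 was 51.8 and 49.9 when fed, 90.3 and 67.7 at day 2 and 35.0 and 45.4 at day 5, and in every library it lay below cluster 0 and above cluster 1. *salm*, the selector gene of fibrillar muscle, stood at 7.47 in cluster 22, 12.2 in cluster 0 and 0.948 in cluster 1. *Pfk*, the phosphofructokinase of glycolysis, stood at 7.79, 11.8 and 2.31 in that order, and *Pcyt1*, which makes CDP-choline for phosphatidylcholine, at 7.27, 12.6 and 1.62.

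Among the genes of cluster 1, *mbl*, the muscleblind splicing factor (chromosome 2R, 17216549 to 17379376, overlapping several small genes), stood at 23.05 UMIs per 10000 in cluster 22, 1.02 in cluster 0 and 52.1 in cluster 1. By library its level in cluster 22 was 23.2 and 25.98 when fed, 20.5 and 24.4 at day 2 and 19.5 and 13.9 at day 5, against 0.821 to 1.17 in cluster 0 and 45.2 to 61.4 in cluster 1. The 3 clusters did not overlap in any library. *Mlp60A*, a muscle LIM protein gene, stood at 16.6, 2.34 and 30.1 in clusters 22, 0 and 1. *GluClalpha*, a glutamate-gated chloride channel, stood at 12.7, 0.210 and 24.8, and *Sh*, the Shaker potassium channel, at 14.8, 4.43 and 22.2.

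**Figure D2:**
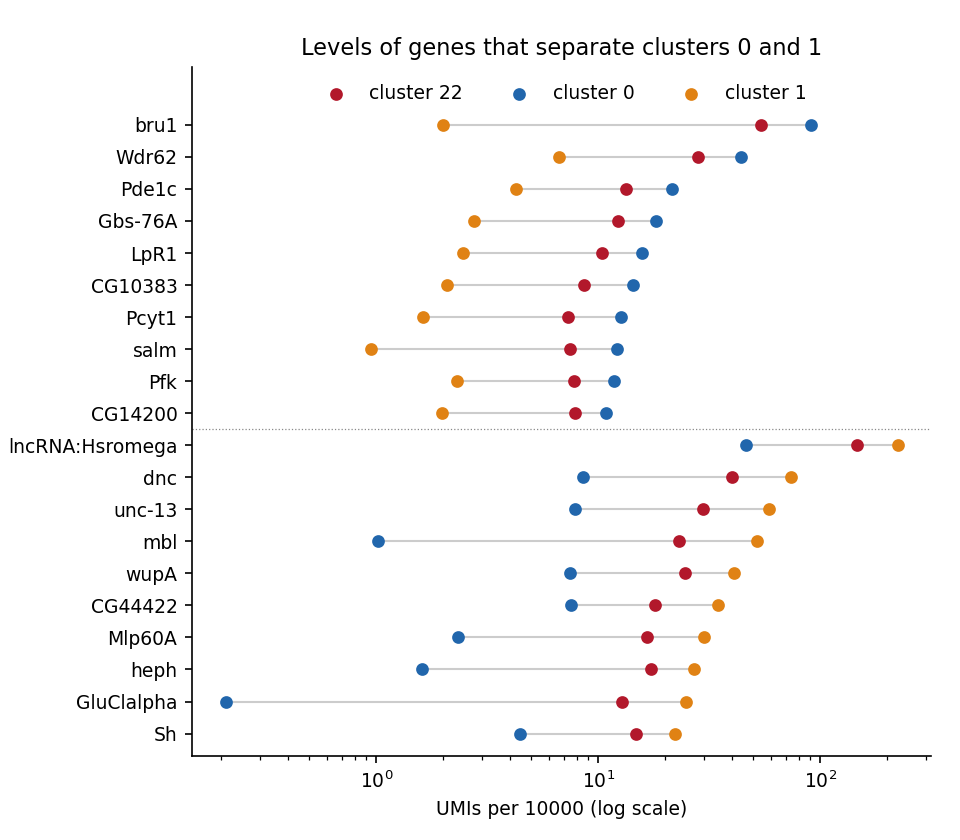
Levels (x axis, UMIs per 10000, log scale) in clusters 22, 0 and 1 of the 10 genes higher in cluster 0 (above the dotted line) and the 10 higher in cluster 1 (below it) with the most UMIs among the 180 genes that separate those clusters. For all 20 genes the point of cluster 22 lies between the other 2, as for *bru1* at 54.3 between 90.4 and 1.99.

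A level between 2 clusters can come from a mixture of nuclei of each kind or from nuclei that each hold both gene sets. The share of UMIs from each set was therefore taken in each nucleus. Genes of cluster 0 made up a median of 2.51% of the UMIs of a nucleus in cluster 22, 4.12% in cluster 0 and 0.466% in cluster 1. Genes of cluster 1 made up 6.22% in cluster 22, 1.31% in cluster 0 and 10.8% in cluster 1. With limits set at the 95th percentile of the other muscle cluster (1.16% for the first set, from cluster 1, and 2.71% for the second, from cluster 0), 205 of 213 nuclei (96.2%) of cluster 22 lay above both. Of the remaining 8 nuclei, 4 passed only the first limit and 4 only the second. In cluster 0, 473 of 9538 nuclei lay above both, and in cluster 1, 272 of 5496, shares that the percentile sets near 5% by construction. In cluster 13 the figure was 75 of 629. Outside muscle both limits were passed by 432 of 458 nuclei (94.3%) of the oenocyte cluster, 68 of 122 (55.7%) of the oviduct cluster, 1611 of 3013 (53.5%) of the fat body cluster, 267 of 588 (45.4%) of cluster 14 and 133 of 294 (45.2%) of cluster 20. Of 5413 nuclei above both limits in the atlas, 205 (3.79%) were in cluster 22, so passing both is not particular to it, and the comparison is with the other muscle clusters.

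For cluster 22 all libraries gave the same picture. Nuclei above both limits numbered 54 of 56 and 72 of 74 in the fed libraries, 16 of 17 and 28 of 29 at day 2, and 19 of 21 and 16 of 16 at day 5. Most barcodes of cluster 22 in each library thus held both sets. Within the cluster the 2 shares ran against each other (Pearson's r of -0.33 over 213 nuclei, a description, since shares of 1 total constrain each other and nuclei of 1 library share their source). The limits were set over all libraries together, and in clusters 0 and 1 more nuclei passed both at day 5. In cluster 0 these were 55 of 2369 and 58 of 2599 when fed, and 144 of 1035 and 152 of 1064 at day 5. In cluster 1 they were 21 of 1174 and 31 of 1191, and 84 of 602 and 96 of 637.

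**Figure D3:**
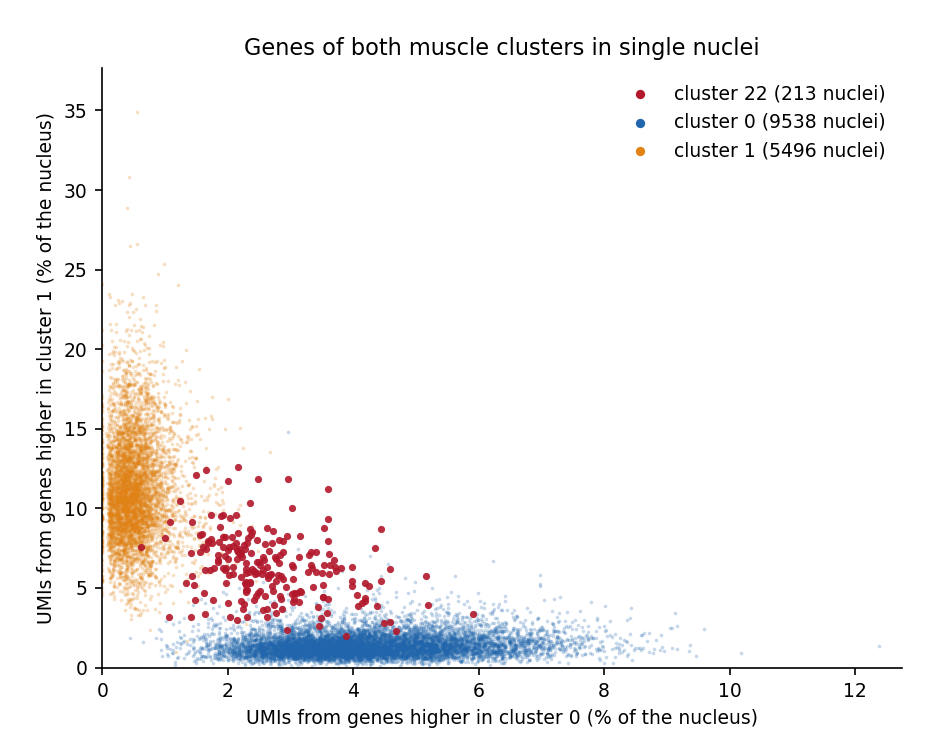
Share of a nucleus's UMIs from the 53 genes higher in cluster 0 (x axis, %) against the share from the 127 genes higher in cluster 1 (y axis, %), with 1 point per nucleus of clusters 22, 0 and 1. Nuclei of cluster 22 lie around medians of 2.51% and 6.22%, between the medians of the 2 large clusters. The ranges overlap, and 473 nuclei of cluster 0 and 272 of cluster 1 also passed both limits.

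Single pairs of genes showed it too. To compare clusters of unlike depth, each nucleus was thinned to 900 UMIs, which left out 0 of 213 nuclei in cluster 22, 2957 of 9538 in cluster 0 and 3154 of 5496 in cluster 1. *bru1* and *mbl* both had a UMI in 60.1% of nuclei in cluster 22, 7.55% in cluster 0 and 9.65% in cluster 1. Unthinned, the shares were 72.3%, 8.42% and 10.4%. A flight muscle isoform (*fln* or *TpnC4*) together with a tubular one (*Act79B* or *TpnC41C*) was found in 13.6% of thinned nuclei in cluster 22, 1.44% in cluster 0, 1.32% in cluster 1 and 0.0668% in the fat body cluster, which should lack all 4. The unthinned shares in the same order were 27.2%, 1.95%, 1.53% and 1.49%, at median depths of 1816, 1025, 852 and 4215 UMIs per nucleus. RNA free in solution gives UMIs in nuclei that do not express a gene, so the shares in cluster 0, cluster 1 and the fat body cluster are given beside those of cluster 22.

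Nuclei of cluster 22 were also deeper. They held a median of 1816 UMIs, against 1025 in cluster 0 and 852 in cluster 1, and 211 of 213 (99.1%) were above the median of cluster 0. By library the median of cluster 22 was 1957 and 1697 UMIs in fed libraries, 1835 and 1926 at day 2 and 1757 and 1740 at day 5. The sum of the medians of clusters 0 and 1 in the same libraries was 1989 and 1921, 1886 and 1986, and 1637 and 1598. Whether a barcode of cluster 22 captured 1 nucleus or nuclei of both kinds together was not tested, and how doublets were treated is not given in the sources used here.

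The share of cluster 22 among all nuclei was lower at day 2 of starvation than in fed flies, by a difference that did not pass the test. It was 0.557% (95% interval 0.421 to 0.722, exact Clopper-Pearson) and 0.733% (0.576 to 0.920) in the fed libraries, 0.224% (0.131 to 0.358) and 0.387% (0.259 to 0.555) at day 2, and 0.556% (0.345 to 0.849) and 0.398% (0.228 to 0.646) at day 5. These intervals cover counting error only. Both day 2 libraries lay below both fed libraries, whereas those of day 5 lay from 0.398% up to just under the lower fed one.

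The shares of all 26 clusters were tested together with limma on log2 shares, with Benjamini-Hochberg adjustment over clusters. For cluster 22 the log2 difference was -1.10 at day 2 against fed (SE 0.338, adjusted p = 0.0655, unadjusted p = 0.0277), a fold of 0.468. In that contrast 7 of 26 clusters (26.9%) passed. The log2 difference was -0.41 at day 5 against fed (SE 0.338, adjusted p = 0.334), where 16 clusters (61.5%) passed, and 0.68 at day 5 against day 2 (SE 0.338, adjusted p = 0.121), where 21 (80.8%) passed. Without the second day 2 library the log2 difference was -1.48 at day 2 against fed and 1.07 at day 5 against day 2. These were the largest with 1 library left out at a time, and the smallest were -0.71 and 0.30. With 2 libraries per condition an exact two-sided permutation test cannot give a p below 0.333.

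Cluster 0 fell by 0.59 on the log2 scale at day 2 against fed (limma, adjusted p = 0.0112). Cluster 1 differed by 0.10 in the same contrast (adjusted p = 0.237). At day 5 against fed cluster 1 rose by 0.44 (adjusted p = 0.00371), and cluster 0 differed by 0.13 (adjusted p = 0.198). Cluster 13 rose in both contrasts, by 0.59 at day 2 (adjusted p = 0.0112) and by 1.21 at day 5 (adjusted p = 0.000634). Counted per 100 nuclei of clusters 0 and 1 together, cluster 22 had 1.58 and 1.95 nuclei in fed libraries, 0.767 and 1.35 at day 2 and 1.28 and 0.941 at day 5, so on this base all 4 starved libraries lay below both fed ones. The fed libraries also held the most nuclei, 10059 and 10091, against 7591 and 7492 at day 2 and 3776 and 4018 at day 5. The part of library size in the shares was not tested. A share says nothing of nuclei per fly, since fewer nuclei of this kind and more of others give the same value.

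**Figure D4:**
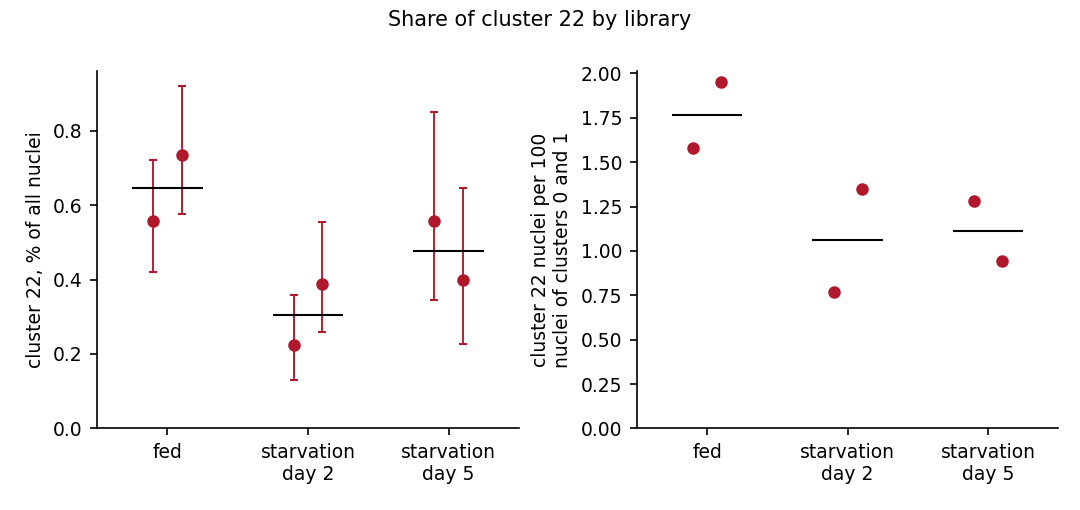
Cluster 22 as a percentage of all nuclei (left, points are libraries, whiskers 95% exact binomial intervals, lines the means of 2 libraries) and per 100 nuclei of clusters 0 and 1 (right), in fed flies and at days 2 and 5 of starvation. Mean shares were 0.645%, 0.306% and 0.477%, and both day 2 libraries lie below both fed ones.

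Expression within cluster 22 was compared between conditions with limma on the mean deposited value per library, over 1349 genes with a nonzero value in at least 10 nuclei of at least 2 libraries. The fed libraries had 56 and 74 nuclei and the starved ones 16 to 29, so a gene could pass this filter through the fed libraries alone. The filter thus favoured genes high in fed flies, and counts by direction are not read as a result. Differences are in natural-log units of a value that the authors scaled to each gene's own total, so their sizes compare conditions and not genes. The median difference over all genes was -0.02 at day 2 against fed, -0.08 at day 5 against fed and -0.05 at day 5 against day 2.

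At day 2, 17 genes changed at an adjusted p below 0.05 (1.26% of those tested). Under the filter that favoured genes high in fed flies, all 17 (1.26%) fell, with 0 (0.00%) that rose. At an unadjusted p below 0.05 there were 107. Without the first or the second day 2 library the count was 9 and 10. The 17 genes were those of the eggshell (*Cp15*, *Cp16*, *Cp18*, *Cp19*, *Cp36*, *Cp38*, *Vm26Aa*, *Vm26Ab* and *Vm34Ca*), a yolk protein gene (*Yp2*), gut digestive enzymes (*Jon65Aiii*, *Jon65Aiv*, *CG11911*, *CG12374* and *LysD*), *Pebp1* and *CG12057*. All 17 also fell at day 5. The 17 are not muscle genes, and the 6 choriogenic and 3 tested vitellogenic list members fell at both times. *Cp15*, *Cp16*, *Cp18*, *Cp19*, *Cp36*, *Cp38*, *Vm26Aa*, *Pebp1* and *CG11911* had 0 UMIs in every starved library, so they entered the test through the fed libraries alone.

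The values of *Cp15*, a chorion protein gene, show the pattern. It stood at 17.0 and 16.7 UMIs per 10000 in fed libraries of cluster 22 and at 0 in all 4 starved libraries, at least 49.5-fold lower at day 2 and at least 38.3-fold lower at day 5 (bounds from a floor of 3 UMIs over the 2 libraries of the starved group). The difference was -2.32 at both times (SE 0.191, limma adjusted p = 0.00027 and 0.000135). In cluster 0 it stood at 23.7 and 20.7 in fed libraries and 0.210 and 0.215 at day 2, and in cluster 1 at 22.9 and 18.5 in fed libraries and 0.150 and 0.181 at day 2. The fall was of the same size there, at -2.35 and -2.26. Over the 17 genes the difference at day 2 ran between -2.32 and -0.78 in cluster 22 and between -2.03 and -0.49 over all other nuclei. None of the 17 moved beyond the other nuclei in the test given below, and the part of free RNA in these values was not tested. *Vm26Aa*, *Cp36*, *Cp38* and *Vm34Ca*, the next genes by adjusted p, stood at 2.47 to 10.9 in fed libraries. *Vm34Ca* had 0.351 in the second day 2 library, and otherwise all 4 were at 0 in the starved libraries.

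At day 5 against fed, 148 genes changed (11%), 48 up (3.56%) and 100 down (7.41%), with 346 at an unadjusted p below 0.05. The count was 21 and 27 without the first and the second fed library and 96 without the second day 5 library. In the same 1349 genes and contrast, 76.5% passed in cluster 0 and 55.7% in cluster 1, which have many more nuclei. At day 2 against fed, 43.4% passed in cluster 0 and 13.9% in cluster 1, and at day 5 against day 2, 73.4% and 51.1%.

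The 5 genes that rose with the smallest adjusted p at day 5 against fed were *CG10383*, *LpR1*, *Chchd2*, *l(1)G0469* and *CG14207*. *CG10383* (chromosome 2L, 18690904 to 18695602, overlapping *CG10336* on the other strand) had 2.12 and 2.60 UMIs per 10000 in fed libraries, 9.93 and 5.80 at day 2 and 30.5 and 36.5 at day 5. The difference at day 5 against fed was 3.16 (SE 0.233, adjusted p = 9.26e-05), beside 3.59 in cluster 0 and 1.02 in cluster 1. *LpR1*, a lipophorin receptor gene (chromosome 3R, 25741348 to 25763105), had 3.35 and 4.82 in fed libraries, 9.60 and 10.7 at day 2 and 33.9 and 31.5 at day 5. Its difference at day 5 against fed was 2.01 (SE 0.184, adjusted p = 0.000252), beside 2.12 in cluster 0 and 0.71 in cluster 1. For both genes the libraries of the 3 conditions did not overlap.

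*Chchd2*, a mitochondrial protein gene of the twin CX9C family, had 5.21 and 4.53 UMIs per 10000 in fed libraries, 8.00 and 7.91 at day 2 and 28.1 and 16.6 at day 5 (difference at day 5 against fed 1.85, SE 0.187, adjusted p = 0.000283). *l(1)G0469* (chromosome X, 14203961 to 14211457, overlapping *Prp16* on the other strand) had 0.529 and 0.817 in fed libraries, 1.60 and 1.05 at day 2 and 14.7 and 10.6 at day 5 (difference 1.95, SE 0.206, adjusted p = 0.000327). *CG14207*, a small heat shock protein gene of the HspB8 kind, had 2.74 and 1.93 in fed libraries, 8.32 and 2.99 at day 2 and 16.6 and 20.6 at day 5 (difference 1.86, SE 0.203, adjusted p = 0.000328). In all 3 genes both day 5 libraries stood above every other library. The 5 genes that fell with the smallest adjusted p were again *Cp15*, *Vm26Aa*, *Cp36*, *Vm34Ca* and *Cp38*.

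**Figure D5:**
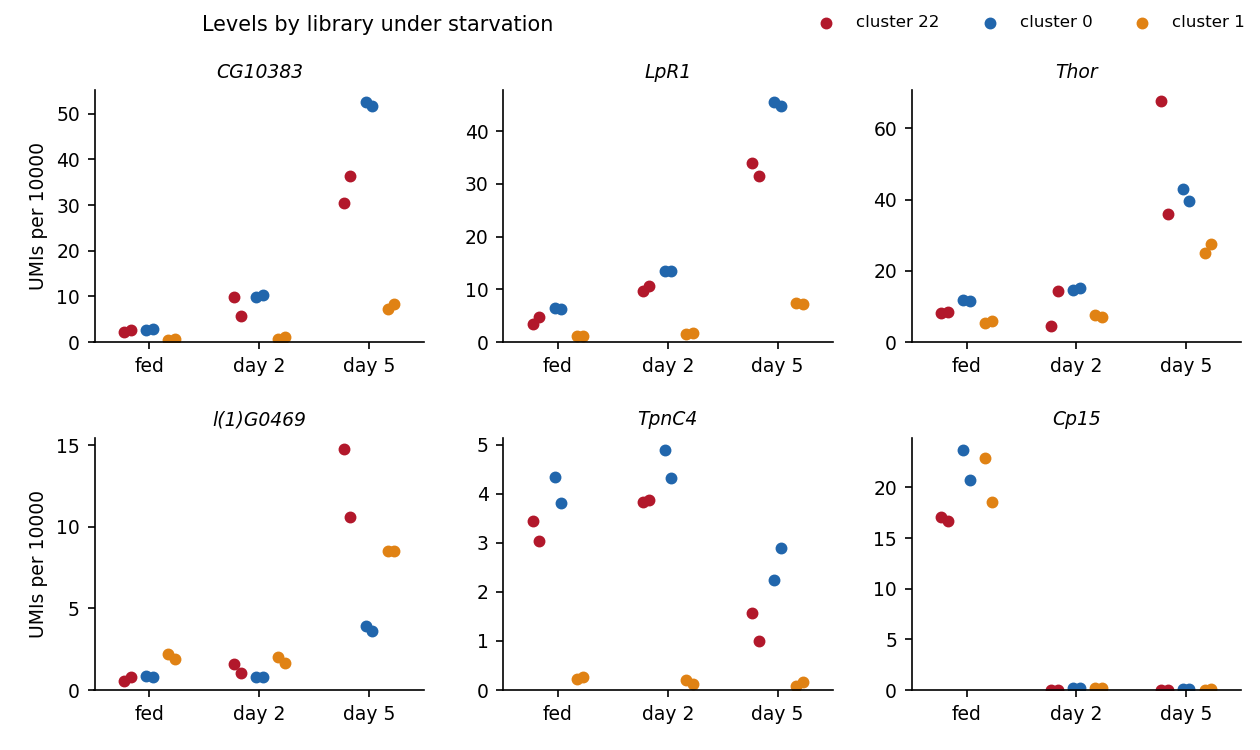
Levels (y axis, UMIs per 10000) of 6 genes in each library of clusters 22, 0 and 1, in fed flies and at days 2 and 5 of starvation, with 1 point per library. *CG10383* and *LpR1* at day 5 stand between the 2 large clusters, *l(1)G0469* stands above both at 14.7 and 10.6, and *Cp15* is at or near 0 in every starved library of all 3 clusters.

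Of 16 genes on a list of starvation and insulin response, 8 were tested. At day 2 against fed 0 changed, where 1.26% of all genes did. At day 5 against fed 3 rose, where 3.56% of all genes did, with a median difference over the 8 of 0.40 beside -0.08 over all genes. *Thor*, the translation inhibitor 4E-BP, had 8.03 and 8.54 UMIs per 10000 in fed libraries, 4.48 and 14.4 at day 2 and 67.6 and 35.8 at day 5 (difference at day 5 against fed 2.07, SE 0.273, limma adjusted p = 0.00111). The day 2 libraries lay on either side of the fed ones, and the day 5 libraries above all. *InR*, the insulin receptor, had 9.09 and 9.35 in fed libraries, 10.6 and 14.1 at day 2 and 17.1 and 20.6 at day 5 (difference 0.67, adjusted p = 0.0436). *Lpin*, the phosphatidate phosphatase of triglyceride synthesis, had 6.71 and 7.50 in fed libraries, 5.12 and 5.10 at day 2 and 13.7 and 12.6 at day 5 (difference 0.71, adjusted p = 0.0228). *foxo*, *REPTOR*, *Lsd-2*, *Akt1* and *Desat1* did not pass, with differences at day 5 against fed of 0.41, 0.29, 0.23, 0.40 and 0.03.

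Of the other genes that rose, 3 that act in lipid metabolism were singled out after their values were seen, with no list counted. *Pcyt1* had 6.0 and 5.64 UMIs per 10000 in fed libraries, 6.403 and 6.15 at day 2 and 14.99 and 12.6 at day 5 (adjusted p = 0.00471 at day 5 against fed), *LPCAT*, which acylates lysophosphatidylcholine, had 0.794 and 0.965, 1.28 and 0.879, and 3.42 and 4.31 (adjusted p = 0.00471), and *SREBP*, the transcription factor of lipid synthesis, had 1.41 and 0.817, 0.320 and 0.879, and 3.16 and 4.31 (adjusted p = 0.026). For each of the 3 the day 5 libraries lay above the rest. *Pcyt1* overlaps *Pcyt2* and *LPCAT* overlaps *CG42395*, each on the same strand, and *SREBP* overlaps *CG14102* on the other strand, so their reads may be shared.

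On the fixed lists, the contractile genes that changed all fell. Of the 7 muscle list genes 0 changed at day 5 against fed, where 11% of all genes did, with a median difference of -0.18. At day 5 against day 2, where 1.93% of all genes fell, *TpnC41C* alone of the 7 fell. It had 2.38 and 6.46 UMIs per 10000 in fed libraries, 4.16 and 3.69 at day 2 and 1.84 and 1.33 at day 5 (difference at day 5 against day 2 -1.004, SE 0.237, limma adjusted p = 0.0444). Of the 4 flight muscle list genes 3 were tested, and 2 fell at day 5 against fed, where 7.41% of all genes fell. *Mf* had 58.1 and 61.8 in fed libraries, 63.4 and 69.6 at day 2 and 32.1 and 28.5 at day 5 (difference at day 5 against fed -0.59, adjusted p = 0.026), beside -1.60 in cluster 0 and -0.34 in cluster 1. *TpnC4* had 3.44 and 3.04, 3.84 and 3.87, and 1.58 and 0.995 (difference -0.87, adjusted p = 0.0226), beside -0.42 and -0.05. Both genes were lower in both day 5 libraries than in any other library. Some genes of the sarcomere outside these lists rose at day 5 against fed. They were singled out after their values were seen, with no list counted. *Mlc1*, the myosin alkali light chain, had 7.32 and 8.54 in fed libraries, 8.96 and 10.02 at day 2 and 13.1 and 13.9 at day 5 (difference 0.79, adjusted p = 0.0108), beside 0.39 in cluster 0 and -0.31 in cluster 1. The Z-disc gene *zormin* differed by 0.68 (adjusted p = 0.0228), beside 0.25 in cluster 0 and 0.27 in cluster 1. The tropomodulin gene *tmod* differed by 0.52 (adjusted p = 0.0434), beside 0.40 and 0.37. *fln* had 3.53 and 2.38, 5.44 and 2.99, and 1.58 and 0, a difference of -1.05 (adjusted p = 0.134) at day 5 against fed and of -1.87 (adjusted p = 0.037) at day 5 against day 2.

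Cytosolic ribosomal protein genes, a list drawn up after the results were seen, fell at day 5. Of 79 tested of 84, 27 fell and 1 rose at day 5 against fed, where 7.41% of all genes fell and 3.56% rose, with a median difference of -0.61 beside -0.08 over all genes, -0.78 for the list in cluster 0 and -0.61 in cluster 1. At day 2 against fed 0 passed, where 1.26% of all genes did, with a median of -0.10. *RpL27* had 10.7 and 10.6 UMIs per 10000 in fed libraries, 11.2 and 13.2 at day 2 and 3.94 and 3.65 at day 5 (difference at day 5 against fed -0.92, SE 0.191, limma adjusted p = 0.016). The gene that rose was *RpL24-like*, which acts in ribosome assembly (difference 0.87, adjusted p = 0.0327). Of 2 fat body list genes tested, 1 fell at day 5 against fed, and of 2 enterocyte list genes tested, 2 fell. The yolk protein gene *Yp1* had 8.91 and 8.09 in fed libraries, 4.16 and 2.64 at day 2 and 1.84 and 0.663 at day 5 (adjusted p = 0.00789 at day 5 against fed), while *apolpp*, the lipophorin gene, differed by -0.21 (adjusted p = 0.331), and the trypsin genes *alphaTry* and *betaTry* both passed at day 5 against fed (adjusted p = 0.00386 and 0.0394). For *Yp1* the difference of -1.09 stood beside -1.29 in cluster 0 and -1.20 in cluster 1.

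At day 5 against day 2, 54 genes changed (4.0%), 28 up (2.08%) and 26 down (1.93%), and 328 had an unadjusted p below 0.05. The count was 0 without either fed library, 5 and 17 without the first and the second day 2 library, and 98 without the first day 5 library. Those that rose with the smallest adjusted p were *CG10383*, *l(1)G0469*, *LpR1*, *CG5953* and *CG34423*. Those that fell were *RpL27*, *Sema1b*, *CG3630*, *Cda5* and *CG42337*, all with an adjusted p of 0.0211. *Sema1b*, a semaphorin, had 2.29 and 3.49 UMIs per 10000 in fed libraries, 8.64 and 5.10 at day 2 and 2.10 and 1.66 at day 5, with its highest values at day 2, and in cluster 0 it had 4.90 and 5.07, 6.48 and 6.56, and 3.64 and 4.31. *Cda5*, a chitin deacetylase gene, had 0.794 and 1.86, 2.56 and 3.87, and 0.263 and 0.332.

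Starvation moved many genes in all nuclei, so the response of cluster 22 was tested against that of the other nuclei of the same libraries. At day 2, 0 of 1349 genes (0.00%) differed in limma, with 75 at an unadjusted p below 0.05. At day 5, 2 genes (0.148%) rose further in cluster 22, with 149 at an unadjusted p below 0.05. *l(1)G0469* rose by 1.67 more in cluster 22 than in the other nuclei (SE 0.209, adjusted p = 0.0111) and *CG10383* by 1.69 more (SE 0.262, adjusted p = 0.0371). Without either fed library 0 genes passed, and without the first day 5 library 9 did. On summed UMIs the value for *CG10383* was 0.04 (adjusted p = 0.971).

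Set against the nuclei of clusters 0 and 1 only, a base chosen after the data were seen, 0 genes passed. The difference was 1.37 for *l(1)G0469* (adjusted p = 0.104) and 0.55 for *CG10383* (adjusted p = 0.842). For *CG10383* it was -0.43 against cluster 0 (adjusted p = 0.768) and 2.14 against cluster 1 (adjusted p = 0.0172). On this scale, which depends on base level and depth, its response lay between those of the 2 clusters. By level it went from 2.12 and 2.60 UMIs per 10000 when fed to 30.5 and 36.5 at day 5 in cluster 22. In cluster 1 it went from 0.550 and 0.587 to 7.33 and 8.30, and in cluster 0 from 2.69 and 2.89 to 52.6 and 51.7. Whether the folds differed between the clusters was not tested. For *l(1)G0469* it was 1.47 against cluster 0 (adjusted p = 0.0795) and 1.22 against cluster 1 (adjusted p = 0.0386), and both day 5 libraries of cluster 22, at 14.7 and 10.6 UMIs per 10000, lay above those of cluster 0, at 3.91 and 3.59, and of cluster 1, at 8.53 and 8.51. At day 2 all 3 clusters were between 0.771 and 2.03.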

How the data were processed

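The authors counted UMIs with Cell Ranger 6.1.1, equalized read depth over libraries and clustered the nuclei, and their processing notes name Seurat and build BDGP6. They deposited natural log values of 12925 genes, and an annotation with the cluster of each nucleus. Annotation version, strand, filters on nuclei and doublet treatment are not given in the sources used here, and no doublet caller was run. The scale of the values was inferred: a UMI count, divided by the totals of its nucleus and of its gene and multiplied by 10000 and by the number of nuclei, was increased by 1 and logged. UMIs worked back were whole within 0.05 for 99.988% of nonzero values, and the formula returned 99.985% within 0.001. They numbered 92035181, with a median of 1231 per nucleus (499 to 24995). Barcode endings gave the library. Library names carry 5 and 7 where titles give day 2 and day 5, and the titles were used. The labels give both 5 and 7 days at 29 °C.

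Means of the deposited natural log values per library were tested with limma 3.58.1 in R 4.3.3 (lmFit, eBayes with trend), all 6 libraries in 1 fit, Benjamini-Hochberg adjustment over 1349 genes, threshold 0.05. Shares had 0.5 added to each count. Levels, thinning and the weighted sum (square-root weights) used Python 3.11.15, numpy 2.4.6 and scipy 1.17.1. The members and gene lists were chosen with earlier results of these data known. Named genes were the 20 with the highest ratio to any other cluster, the 10 with the highest level, up to 5 per direction and contrast with the smallest adjusted p and no overlap of libraries, and list members with a UMI in at least 10% of nuclei. Genes that separate clusters 0 and 1 or leave the weighted sum were named after their values were seen. Gene positions are from Ensembl's annotation of BDGP6. Alternatives were summed UMIs, other filters, left-out nuclei and libraries and a replicate block.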

Additional observations from a re-analysis of the deposited data

Results flagged for a closer look

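*l(1)G0469* rose further in cluster 22 than in the other nuclei at day 5 against fed, by 1.67 in natural-log units (limma interaction, adjusted p = 0.0111). *CG10383* did so by 1.69 (adjusted p = 0.0371), but on summed UMIs, as given above, its excess all but vanished and did not pass. Both were picked out because the difference between 2 groups of nuclei under the same contrast passed the test. Their levels in both day 5 libraries of cluster 22 were above those in both fed libraries, and neither passed against clusters 0 and 1 together (adjusted p = 0.104 and 0.842).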

How the results depend on the processing

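Of 330 alternatives run on the single genes tested, 265 kept direction and side of the threshold, 64 kept the direction and no longer passed, and 1 reversed (*CG10383*, against cluster 0, -0.43). For day 2 against fed, 7 genes were called with no filter. For day 5 against fed the count was 20 with no filter and 82 without the deepest 10% of nuclei, and for day 5 against day 2 it was 101 on summed UMIs, 0 with no filter, 25 without the deepest 10% and 0 with only the 4 libraries compared. Beyond the other nuclei at day 5, 1 gene passed with a filter of 5 nuclei, 0 with no filter, 0 against clusters 0 and 1 and 0 against cluster 0, the last 2 chosen after seeing the data. Of the 20 genes with the highest ratio, 9 stayed at 25% of nuclei and 13 without the deepest 10%. The cause was not tested. Weights of clusters 0 and 1, whose alternatives were also added later, were 0.572 and 0.503 with genes weighted by level and 0.537 and 0.406 with equal weights.

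With 1 library left out at a time, the log2 difference in share ran between -1.48 and -0.71 (day 2 against fed), -0.65 and -0.18 (day 5 against fed) and 0.30 and 1.07 (day 5 against day 2). Genes called ran between 9 and 21, 21 and 203, and 0 and 98 in the same order, and beyond the other nuclei between 0 and 0 at day 2 and 0 and 9 at day 5. The weights ran between 0.535 and 0.553 and between 0.449 and 0.466. A lone library of a condition is then assumed to vary like the others.

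Deviations of libraries with the same replicate number had correlations of 0.01, -0.003 and 0.01 in cluster 22. Over the other nuclei they were 0.17, -0.09 and -0.05. With 16 to 74 nuclei per library, the values of cluster 22 cannot decide whether libraries were paired. With the replicate block, 16, 130 and 52 genes were called, and the share at day 2 against fed had an adjusted p of 0.106. Among nuclei of the muscle clusters 0, 1, 13 and 22, the share differed by -0.79 (adjusted p = 0.0805), -0.68 (0.116) and 0.11 (0.756). Depth limits the starved libraries, where 3 UMIs are 0.527 to 0.995 per 10000.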
